A study of Mus musculus with 4 samples.

Results

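The collagen gene family was examined for binding of Isl1, a LIM-homeodomain transcription factor, in the genital tubercle, the embryonic outgrowth from which the external genitalia are built. The members were 43 collagen genes taken by name, out of 21883 protein-coding genes of the gene table, and all 43 were found in it. Chromatin immunoprecipitation with sequencing (ChIP-seq, a map of the DNA sites a protein occupies) had been run on 2 Isl1_ChIP samples, and 2 Input_DNA samples had been made from sheared chromatin with no antibody. All 4 came from the genital tubercle of wildtype CD1 embryos at E14.5, the ChIP samples with a rabbit monoclonal antibody to ISL1. Embryo sex and pooling are not given in the labels used here. Each ChIP sample had 1 list of peaks, 8860 in replicate 1 and 10162 in replicate 2, and the inputs had no list and were not analysed here. A peak was counted at a gene where its midpoint lay in the gene or within 100 kb of it. A shared region was the joined span of peaks from both lists that overlapped by at least 1 bp, and 67 of all 6834 shared regions lay at a collagen gene. The score of a peak is the authors' whole-number value, from 20 upward in both lists, and its formula is not given in the sources used here. No RNA was measured, so the values say where Isl1 was found and nothing of how much collagen the tubercle made.

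Collagens are the main structural proteins of the extracellular matrix, built of chains wound around each other into long helices. Types I, III and V assemble into the tensile fibrils of mesenchyme, types II and XI into those of cartilage, and type IV into the sheet of basement membranes. Other types decorate fibrils, form short networks or span cell membranes. Transcription factors can act on a gene from its promoter or from distant enhancers, so a peak near a gene does not by itself tie it to that gene. The genital tubercle is a core of mesenchyme under a surface epithelium, and the fibrillar and beaded filament collagens are known products of such mesenchyme.

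The region nearest to the start of any collagen gene was at Col3a1, which encodes the chain of type III collagen, a fibril of soft and elastic tissue. Its midpoint lay 122 bases before the start (chr1:45311353-45311483), with scores of 66 in replicate 1 and 32 in replicate 2, low values in both lists. It was the 1 shared region that overlapped a RefSeq promoter window of a collagen gene (250 bases before to 50 after a start, GRCm38.p6), among 34 members with such a window. Of the 37 windows of those members, 2.70% were overlapped, against 2.81% of 32851 windows of all genes. The 250 bases before the start are shown for Col3a1, and for the 4 promoters of other genes with the highest scores near a collagen gene, because much of the strongest signal in collagen neighbourhoods lay at the latter. Those 4 were picked after their values were seen. Capitals mark the bases covered by peaks of both replicates.

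Col3a1 (chr1:45311288-45311537, plus strand): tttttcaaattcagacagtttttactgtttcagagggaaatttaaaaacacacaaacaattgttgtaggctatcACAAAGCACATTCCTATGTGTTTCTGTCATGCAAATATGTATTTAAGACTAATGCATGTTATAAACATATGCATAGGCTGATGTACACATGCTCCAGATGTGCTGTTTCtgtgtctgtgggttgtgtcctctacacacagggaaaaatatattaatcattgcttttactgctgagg
Map7d1, near Col8a2 (chr4:126256320-126256569, minus strand): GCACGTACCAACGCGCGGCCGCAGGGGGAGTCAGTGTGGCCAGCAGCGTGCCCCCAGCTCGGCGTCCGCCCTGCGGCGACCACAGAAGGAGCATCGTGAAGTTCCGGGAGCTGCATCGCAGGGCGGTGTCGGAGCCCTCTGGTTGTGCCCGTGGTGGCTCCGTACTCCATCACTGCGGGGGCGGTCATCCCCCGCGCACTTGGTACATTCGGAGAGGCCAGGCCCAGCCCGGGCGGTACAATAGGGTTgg
Cmss1, near Col8a1 (chr16:57606868-57607117, minus strand): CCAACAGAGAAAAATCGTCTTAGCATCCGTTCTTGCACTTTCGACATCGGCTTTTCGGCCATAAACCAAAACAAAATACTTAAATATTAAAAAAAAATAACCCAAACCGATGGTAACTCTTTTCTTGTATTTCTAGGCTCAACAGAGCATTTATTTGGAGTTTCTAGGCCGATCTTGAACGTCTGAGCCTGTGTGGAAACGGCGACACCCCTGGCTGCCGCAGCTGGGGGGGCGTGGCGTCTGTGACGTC
Ppp1r9b, near Col1a1 (chr11:94990962-94991211, plus strand): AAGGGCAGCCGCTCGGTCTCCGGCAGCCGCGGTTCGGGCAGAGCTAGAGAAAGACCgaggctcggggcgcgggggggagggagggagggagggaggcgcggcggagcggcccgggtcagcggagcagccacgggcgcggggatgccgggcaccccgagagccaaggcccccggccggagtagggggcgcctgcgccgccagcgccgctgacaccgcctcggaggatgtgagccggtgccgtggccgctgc
Pdk2, near Col1a1 (chr11:95041372-95041621, minus strand): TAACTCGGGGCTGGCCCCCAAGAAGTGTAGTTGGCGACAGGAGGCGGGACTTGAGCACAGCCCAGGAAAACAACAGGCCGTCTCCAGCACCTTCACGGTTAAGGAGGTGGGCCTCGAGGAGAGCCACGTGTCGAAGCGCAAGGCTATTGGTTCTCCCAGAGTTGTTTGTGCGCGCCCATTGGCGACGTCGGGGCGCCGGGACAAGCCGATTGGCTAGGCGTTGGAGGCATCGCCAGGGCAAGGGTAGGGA

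The Col3a1 stretch differed in composition from the other 4. Its GC content was 35.2% with 0 CpG dinucleotides, against 69.2% and 25 for Map7d1, 46.0% and 14 for Cmss1, 78.0% and 33 for Ppp1r9b, and 62.4% and 19 for Pdk2. The median over the collagen promoters was 59.2%, and over all promoters 52.4%. Searched on both strands, the 109 capital bases of Col3a1 held the homeodomain core TAAT once, 127 bases before the start, inside the longer word CTAATG. They also held the E-box CANNTG at 3 places, none of them overlapping TAAT, and the word TATAAA 117 bases before the start. Among all promoters, 54.9% held TAAT somewhere in the 250 bases, 6.36% held CTAATG and 12.4% held TATAAA. Among the 37 collagen promoters, 12 held TAAT (32.4%), 2 held CTAATG (5.41%), 19 held CANNTG (51.4%, against 66.2% of all), 12 held CCAAT (32.4%, against 33.8%) and 21 held the GC box GGGCGG (56.8%, against 32.7%). In the shown stretches of the other genes, Cmss1 held TAAT once, Map7d1 held GGGCGG 4 times, and Pdk2 held CCAAT 3 times. Cmss1, Map7d1 and Pdk2 each also held CANNTG once. Ppp1r9b held none of the 6 words there. These are matches of letters, not tests of binding.

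At least 1 shared region lay at 26 of the 43 collagen genes (60.5%), against 38.1% of all protein-coding genes. Long genes have wider windows, and the median collagen gene was 114 kb long against 17.2 kb over all genes, so the share was also read within bands of gene length chosen after the data were seen. Under 40 kb, 9 of 13 collagen genes had a region (69.2%, against 34.1% of all genes of that length). From 40 to 80 kb the count was 2 of 5 (against 40.6%), from 80 to 160 kb it was 9 of 15 (60.0%, against 49.0%), and at 160 kb or longer it was 6 of 10 (60.0%, against 65.5%). The share over all members therefore exceeded the general one most among the short genes and not among the longest. Of the 9 short members counted, Col1a1, Col1a2, Col3a1 and Col6a1 had a region nearest to themselves, Col6a2 and Col10a1 had none, and at Col7a1, Col8a2 and Col9a3 the only region lay at an end of another gene. Per length of sequence, the merged windows of the members held 5.28 regions per Mb (67 in 12.7 Mb, exact Poisson 95% interval 4.09 to 6.71), against 2.65 (2.58 to 2.73) for the windows of all protein-coding genes. The intervals cover counting error alone, and neighbouring regions are not independent. At least 3 regions were counted at 10 members, against 6.38% of all genes, while 9 members had 2 and 7 had 1.

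**Figure D1:**
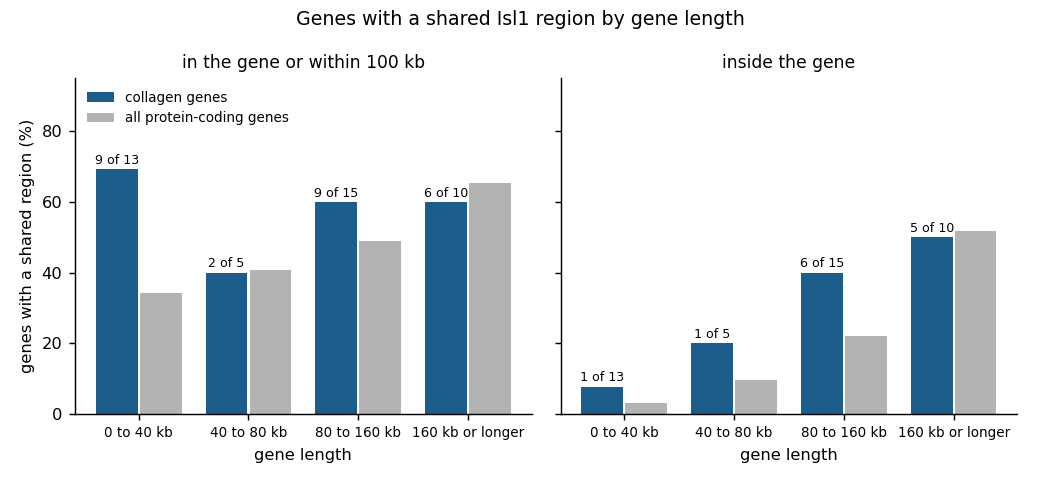
Share of genes (vertical axis, percent) with at least 1 shared Isl1 region in 4 bands of gene length, in the gene or within 100 kb (left) and inside the gene (right), for the 43 collagen genes (blue, with counts) and all protein-coding genes (grey). The largest gap is at genes under 40 kb on the left, 69.2% against 34.1%, while at 160 kb or longer the blue bars are slightly below the grey ones.

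Inside their own gene, 13 members had at least 1 shared region (30.2%), and 28 regions in all lay inside a member. Over all protein-coding genes 8.32% had a region inside. By length, the counts inside were 1 of 13 members under 40 kb (7.69%, against 2.89% of all such genes), 1 of 5 from 40 to 80 kb (20.0%, against 9.55%), 6 of 15 from 80 to 160 kb (against 22.0%) and 5 of 10 at 160 kb or longer (against 51.7%). Gene bodies of members held 5.25 regions per Mb (3.49 to 7.58), against 2.83 (2.73 to 2.94) for all gene bodies. A region within 1 kb of either end of the gene was found at 1 member, Col3a1, which is 2.33% of the 43 against 4.89% of all genes, and a count of 1 does not set the members apart. With the window narrowed to 10 kb, 15 members kept a region (34.9%), against 14.3% of all genes.

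The 2 lists overlapped at the collagen genes about as often as elsewhere. In replicate 1, 67 of 83 peaks at members were shared (80.7%, Wilson 95% interval 71.0 to 87.8%), against 78.5% over the whole list. In replicate 2, 67 of 98 were shared (68.4%, 58.6 to 76.7%), against 68.3%. The 16 peaks seen in replicate 1 alone had a median score of 42.0 (21 to 110), and the 31 seen in replicate 2 alone had a median of 59.0 (27 to 131), both below the medians of the shared ones, 128 and 122. Each shared region was made of 1 peak from each list. Spearman's rho between the replicate 1 and replicate 2 scores was 0.696 over the 67 regions, against 0.717 over all 6834, given as a description because regions of 1 library share its depth and background. The lower of the 2 scores had a median of 101 (quartiles 54.5 and 168), against 91.0 (59.0 and 166) over all shared regions, and 7 of the 67 lay in the top 10% of all regions. Scores were higher in replicate 2 at 35 of the 67 (52.2%), against 58.9% of all regions.

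**Figure D2:**
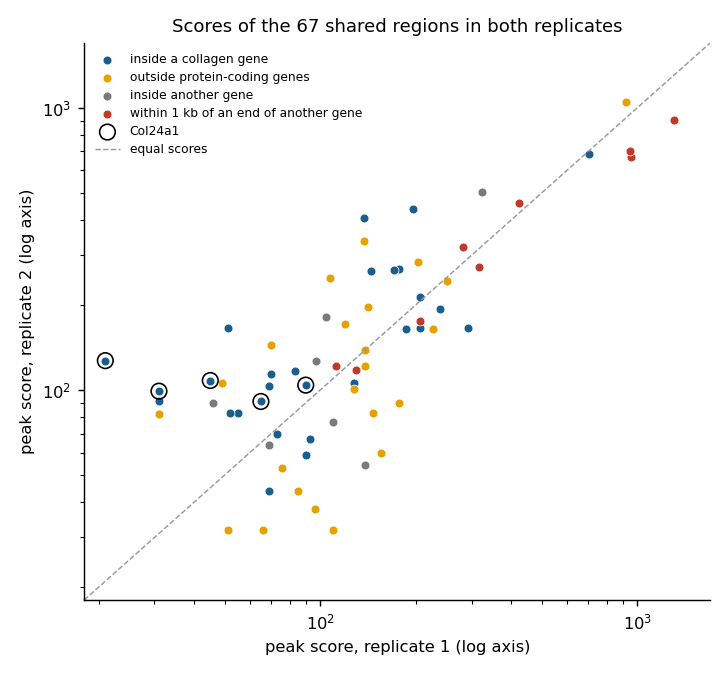
Peak score in replicate 1 (horizontal, log axis) against replicate 2 (vertical, log axis) for the 67 shared regions at collagen genes, coloured by where the region lies, with the regions of Col24a1 ringed and equal scores dashed. The red points, at ends of other genes, follow the dashed line closely, and all 5 ringed points lie above it.

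The position of the regions split the neighbourhoods into unlike parts. Of the 67, 28 lay inside a collagen gene, 23 outside any protein-coding gene, 7 inside another gene, and 9 within 1 kb of an end of another gene. The 9 at ends of other genes had a median lower score of 282, while the other 58 had 83.0 and the 28 inside members 76.5. For comparison, regions inside any protein-coding gene and over 1 kb from every gene end had a median of 87.0, and all regions within 1 kb of a gene end had 206. Of the 10 highest lower scores at collagen genes, 6 were at ends of other genes and 1 was inside a member. The nearest protein-coding gene was a collagen gene for 47 of the regions, spread over 18 members. At Col7a1, Col8a2 and Col9a3, 3 members in all, the single region counted lay at the end of another gene. With regions at ends of any gene other than the one counted left out, 23 members had a region (53.5%), and 26.4% of all genes.

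**Figure D3:**
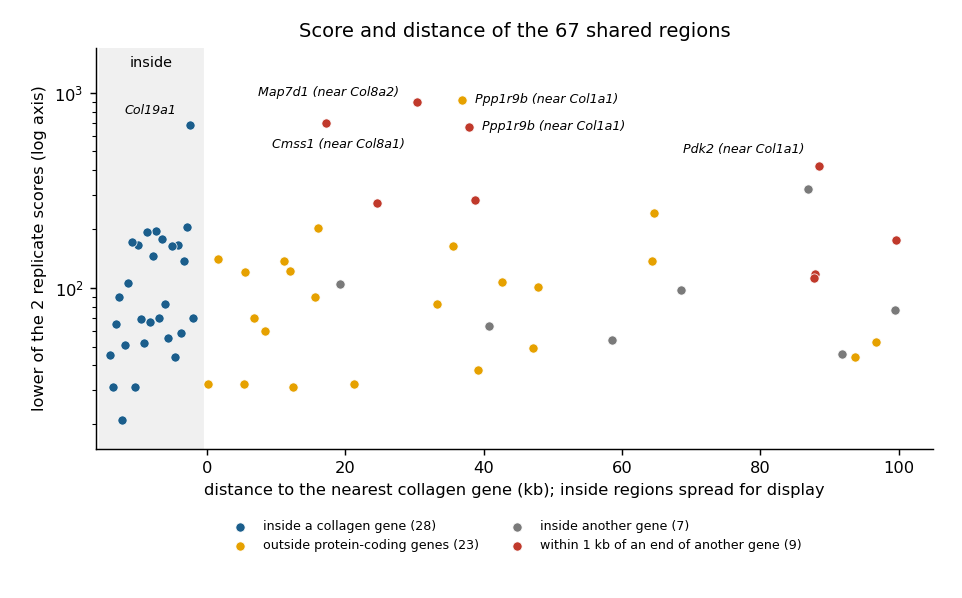
Lower of the 2 replicate scores (vertical, log axis) against distance to the nearest collagen gene in kb (horizontal) for the 67 shared regions, coloured by position, with the regions inside collagen genes spread over the grey band for display only. The named points above 400 lie at Map7d1, Ppp1r9b, Cmss1 and Pdk2, apart from 1 region inside Col19a1.

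The highest replicate 1 score near any collagen gene was 1304, at chr4:126256312-126256634, where replicate 2 had 901. That region was 142 bp from Map7d1, of a family of microtubule-associated proteins, and 30.3 kb before the start of Col8a2. It was the single shared region of Col8a2, a chain of the type VIII network of vessel and corneal membranes, and replicate 2 alone added a peak with a score of 44. Near Col8a1 the strongest was chr16:57606807-57607181 (945 and 701), 128 bp from Cmss1 and 17.3 kb past the end of the collagen gene. At Col7a1, the anchoring fibril collagen of skin, the region counted was chr9:108853860-108854032 (206 and 176), 86 bp from Slc26a6, an anion exchanger gene, and 99.6 kb from the collagen. At Col9a3, a cartilage collagen chain, it was chr2:180709938-180710078 (112 and 122), 48 bp inside the edge of Dido1 and 87.8 kb away, and replicate 1 alone had a further peak inside Col9a3 with a score of 53.

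Fibrillar collagens, the largest class, came first in number, with 26 distinct regions, 13 of them inside a member. A shared region lay at 8 of the 11 genes, against 38.1% of all protein-coding genes. The 11 genes fall in every band of gene length, where 34.1% to 65.5% of all genes had a region. Col1a1 and Col1a2 encode the chains of type I collagen, the commonest fibril of connective tissue, and each had 5 regions and none inside the gene. Their neighbourhoods were otherwise unlike. At Col1a2 (chr6:4505618-4541543) all 5 regions lay before the start, at 15.6 to 47.9 kb, and none was nearer to another protein-coding gene. The strongest, chr6:4489438-4489815, had scores of 203 and 283. Its neighbour chr6:4489890-4490152 (177 and 90), with a midpoint 425 bp away, was the closest to the gene. Farther out lay chr6:4484248-4484437 (51 and 32), chr6:4462751-4463095 (107 and 249) and chr6:4457524-4457892 (128 and 101). Replicate 2 alone added 1 weak peak, with a score of 46, beside the outermost region. The Col1a2 regions thus ranged from low to moderate in both lists and lay on 1 side of the gene.

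At Col1a1 (chr11:94936224-94953042) the nearest of the 5 regions was 36.9 kb away, and 4 of the 5 were nearer to another gene. The pair chr11:94989794-94990065 (921 and 1045) and chr11:94990824-94991022 (952 and 671) lay 1282 and 291 bp from Ppp1r9b, a gene of a protein phosphatase regulator. A second pair, chr11:95040878-95041094 (130 and 118) and chr11:95041299-95041787 (422 and 458), lay at Pdk2, a kinase gene of pyruvate metabolism, 87.9 and 88.5 kb from the collagen. The remaining region, chr11:94896700-94897101, was 39.3 kb away with scores of 96 and 38, and it was the 1 region nearest to Col1a1 itself. Regions within 2 kb of each other made up 8 of the 67 (11.9%, against 10.1% of all shared regions), and 6 of those 8 were in these type I neighbourhoods. The other pair was inside Col14a1.

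**Figure D4:**
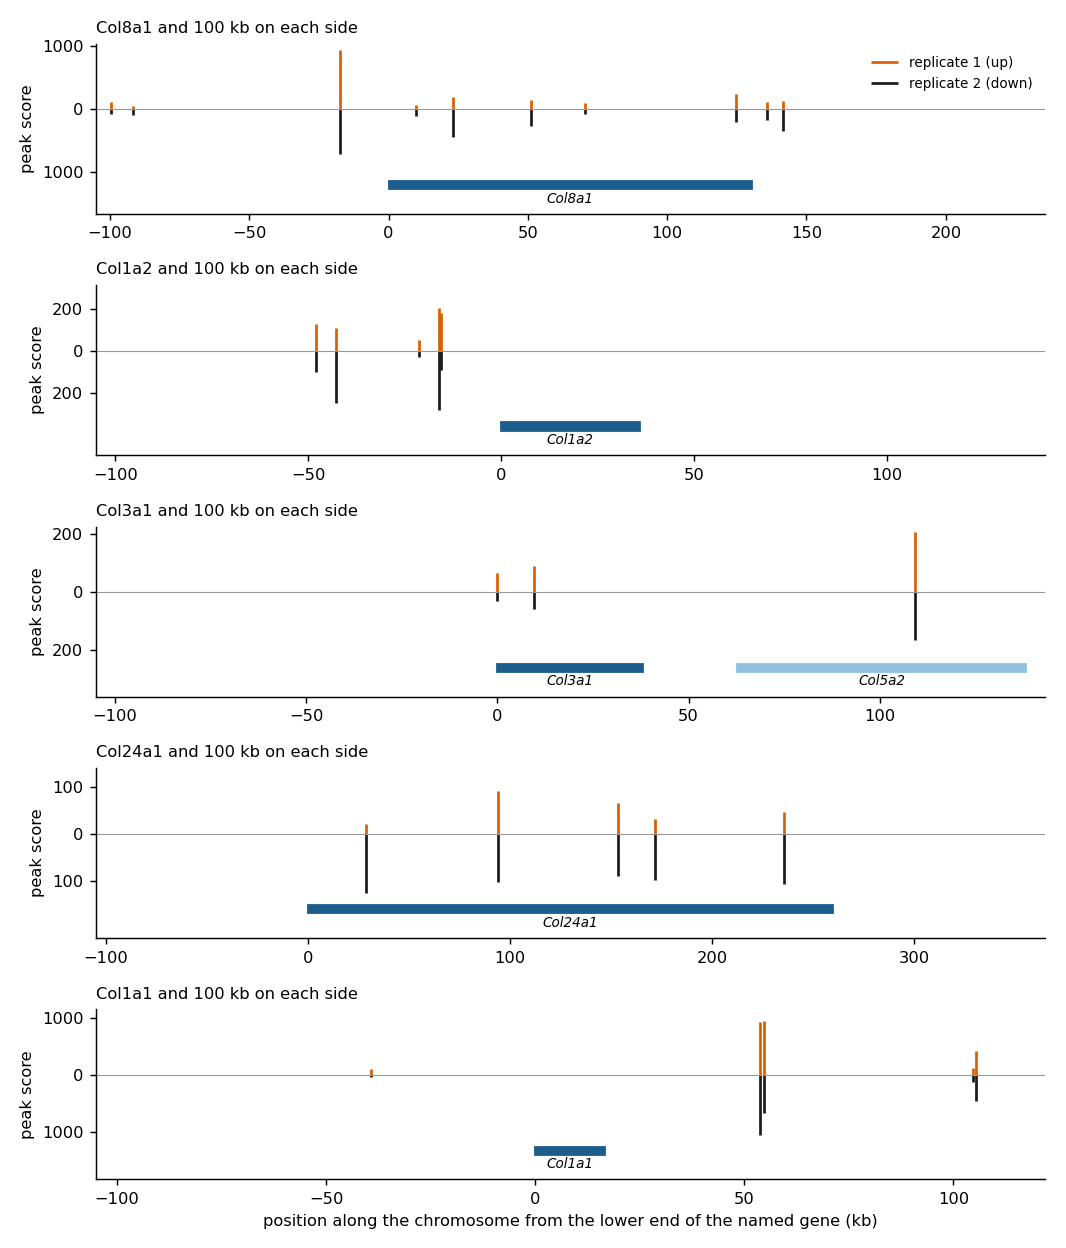
Scores of the shared regions (replicate 1 upward, replicate 2 downward, each axis to its own scale) along 5 collagen genes and 100 kb on each side, with gene bodies as blue bars and position in kb from the lower chromosomal end of the named gene. Regions stand to 1 side of Col1a2, along the whole body of Col24a1 and on both sides of Col8a1, and the tallest lines at Col1a1 and Col8a1 are those at Ppp1r9b, Pdk2 and Cmss1.

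Col3a1 and Col5a2 lie beside each other on chromosome 1, and 3 regions counted for both. Col5a2 encodes a chain of type V collagen, which nucleates type I fibrils. Col3a1 (chr1:45311538-45349706) had 3 regions, the promoter one, chr1:45320951-45321111 inside the gene 9.49 kb past the start (90 and 59), and one inside Col5a2. Col5a2 (chr1:45374331-45503282) had 5, of which 2 lay inside it, chr1:45420629-45421134 (206 and 166) and chr1:45451449-45451636 (69 and 44), and 1 was 96.8 kb off (chr1:45599965-45600239, 76 and 53). All regions at these genes scored higher in replicate 1. Yet replicate 2 listed more peaks there, 7 against 3 at Col3a1 and 10 against 5 at Col5a2. The added ones had scores of 34 to 98, among them 1 inside Col3a1 and 1 inside Col5a2. Within 500 kb there were 14 shared regions for each of the pair.

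Col5a1, the other main chain of type V, had both of its regions inside, chr2:27908382-27909010 (206 and 213) 22.3 kb past the start and chr2:27934359-27934625 (137 and 408) at 48.1 kb. Col11a1, a cartilage fibril chain, also had 2 inside. The stronger was chr3:114137226-114137713 (171 and 267) and the weaker chr3:114053638-114053785 (31 and 91). Its peak count was 3 in replicate 1 and 5 in replicate 2. Col27a1, a fibrillar collagen of cartilage, had 1 inside (chr4:63291102-63291238, 52 and 83) and 1 inside Akna 68.6 kb away (97 and 127). Col2a1, the main cartilage collagen, Col5a3 and Col11a2 had no peak in either list within 100 kb.

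Col24a1, a minor fibrillar collagen, had 5 regions, all inside the gene as at Col5a1 and Col11a1, spread from 28.7 to 236 kb past the start over its 260 kb. Each scored higher in replicate 2, as did both regions of Col5a1, both of Col11a1 and 64.3% of all regions inside members. Of regions inside any protein-coding gene, 58.0% scored higher in replicate 2. The 5 Col24a1 regions had replicate 1 scores of 21 to 90, under the replicate 1 median of 107 over all shared regions. Along the gene they were chr3:145321017-145321266 (21 and 127), chr3:145386489-145386758 (90 and 104), chr3:145445877-145446113 (65 and 91), chr3:145464051-145464227 (31 and 99) and chr3:145527897-145528048 (45 and 108). No lower score passed 90, under the median of all shared regions. Neither list had any further peak at Col24a1. Among all protein-coding genes, 314 had 5 or more regions within 100 kb.

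Col8a1 had the most regions of any member, 10, a number reached or passed by 23 of the 21883 protein-coding genes. It encodes a chain of the short-chain type VIII collagen, and 5 regions lay inside its 130 kb (chr16:57624256-57754737, minus strand). Nearest to the start, 5.77 kb into the gene, was chr16:57748842-57749120 (238 and 194). Deeper in were chr16:57694581-57695010 (93 and 67), chr16:57675106-57675860 (145 and 263), chr16:57647364-57647644 (196 and 437) and chr16:57633718-57634247 (70 and 114). Before the start lay chr16:57759953-57760509 (120 and 171) at 5.45 kb and chr16:57765536-57766111 (137 and 338) at 11.1 kb. These 7 are nearer to Col8a1 than to any other protein-coding gene. The remaining 3 were the one at Cmss1 and 2 inside both Cmss1 and Filip1l, 91.9 kb (46 and 90) and 99.5 kb (110 and 77) away. Replicate 1 had 11 peaks and replicate 2 had 12 in the same window, and 22 shared regions lay within 500 kb. The region chr16:57675106-57675860 was 755 bp wide, against a median of 265 bp over the 67.

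The third short-chain collagen, Col10a1 of hypertrophic cartilage, had 1 region 64.7 kb past its end and nearer to Frk, a tyrosine kinase gene (chr10:34461627-34461859, 251 and 243). Taken with Col8a1 and Col8a2, all 3 of this class had a region, against 38.1% of all protein-coding genes. Col8a1 is in the band of 80 to 160 kb, where 49.0% of all genes had a region. For 1 of the 3, Col8a2, the only region lay at the end of another gene. When each region counted for its nearest gene only, Col8a2 and Col10a1 had 0.

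Type IV collagens, the basement membrane chains, had a shared region at 2 of 6, against 38.1% of all protein-coding genes. There were 4 distinct regions, none of them inside a type IV gene. The median length of these 6 genes was 138 kb. All of them are in the bands of gene length where 49.0% or 65.5% of all genes had a region, and 2 of 6 is below both shares. At Col4a1, a chain of all basement membranes, the region was chr8:11192987-11193234, 5.30 kb past the end, with scores of 110 and 32. Each list had 1 more peak at Col4a1, and that of replicate 1 (score 63, inside the gene) was also the only peak counted at Col4a2, which lies head to head with Col4a1 on the other strand. At Col4a4, all 3 regions lay inside the neighbouring protease gene Rhbdd1, 19.2 to 86.9 kb past the end. The strongest was chr1:82361334-82361805 (323 and 504), then chr1:82428966-82429392 (104 and 181) and chr1:82407572-82407836 (69 and 64). Col4a3, Col4a5 and Col4a6 had no peak in either list.

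Type VI collagens form beaded filaments around cells, and 3 of 5 had a region, against 38.1% of all protein-coding genes. Their lengths fall in the bands where 34.1% to 49.0% of all genes had a region. Col6a3 had one inside, 7.47 kb past the start (chr1:90836318-90836716, 293 and 166), and one 12.1 kb before the start (chr1:90855968-90856215, 138 and 122). Col6a1 had chr10:76732800-76732956 (70 and 144), 6.82 kb before its start. A second region, chr10:76675480-76675623 (147 and 83), lay between Col6a1 and Col6a2. It was the 1 region of Col6a2, where replicate 2 had 2 peaks and replicate 1 had 1. When each region counted for its nearest gene only, Col6a2 had 0. Col6a5 had no peak, and Col6a6 had 3 peaks inside it in replicate 2 alone, with scores of 53 to 83. Replicate 1 had none there.

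Among fibril-associated collagens, which sit on the surface of other fibrils, 4 of 9 had a region. That count is near the 38.1% of all protein-coding genes. Col19a1 held the strongest region inside any collagen gene, chr1:24486479-24486844, with scores of 703 and 686, 101 kb past the start. A weaker one, chr1:24417248-24417372 (73 and 70), lay in the same gene. The next highest lower score inside any member was 206, in Col5a1. Col14a1 had a pair inside, chr15:55379085-55379340 (177 and 269) and chr15:55378720-55379060 (83 and 117), whose midpoints were 388 bp apart, and chr15:55522209-55522583 (141 and 196) 1.60 kb outside. Its peaks numbered 6 in replicate 1 and 5 in replicate 2, so 3 and 2 were in 1 list alone. Col12a1, a collagen of dense connective tissue, had one inside (chr9:79704730-79704994, 69 and 103) and 2 outside, chr9:79534453-79534741 (138 and 139) at 64.4 kb and chr9:79551646-79551934 (49 and 106) at 47.2 kb, and replicate 2 listed 6 peaks there against 3. Col9a1, Col9a2, Col16a1 and Col20a1 had no peak in either list. Col22a1 had 1 peak inside it in replicate 1 alone, with a score of 53.

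All 4 transmembrane collagens had a region, against 38.1% of all genes, and 3 of them are in the bands of gene length where 49.0% or 65.5% of all genes had one. When each region counted for its nearest gene only, Col17a1 and Col25a1 had 0. Col23a1 had 2 inside its 294 kb, chr11:51482176-51482547 (186 and 164) and chr11:51533834-51534122 (55 and 83), where replicate 2 had 4 peaks in all and replicate 1 had 2. Col13a1 had 2 past its end, 12.4 kb (31 and 82) and 35.5 kb (227 and 164) away, out of 3 peaks in replicate 1 and 4 in replicate 2. Col17a1, a collagen of hemidesmosomes in epithelia, had one inside Slk (138 and 54) and one 855 bp from Sfr1 (chr19:47730767-47730968, 282 and 321), and none nearest to itself. Col25a1, the longest member at 420 kb, had none inside and 1 shared region 93.7 kb before its start (85 and 44), while each list had 3 peaks. Inside Col25a1 replicate 1 alone had 1 peak (score 39) and replicate 2 alone had 2 (96 and 95), at other positions. Of the 2 multiplexins of basement membrane zones, Col18a1 had no peak and Col15a1 had 1 peak in replicate 2 alone (score 67). Of the remaining 2, Col28a1 had 1 peak in replicate 1 alone (score 46). Col26a1 had 4 shared regions, chr5:136769255-136769484 (128 and 106) and chr5:136810866-136811192 (51 and 166) inside it, one 8.36 kb away (156 and 60) and the strongest 116 bp from the intraflagellar transport gene Ift22 (chr5:136907957-136908122, 316 and 273).

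**Figure D5:**
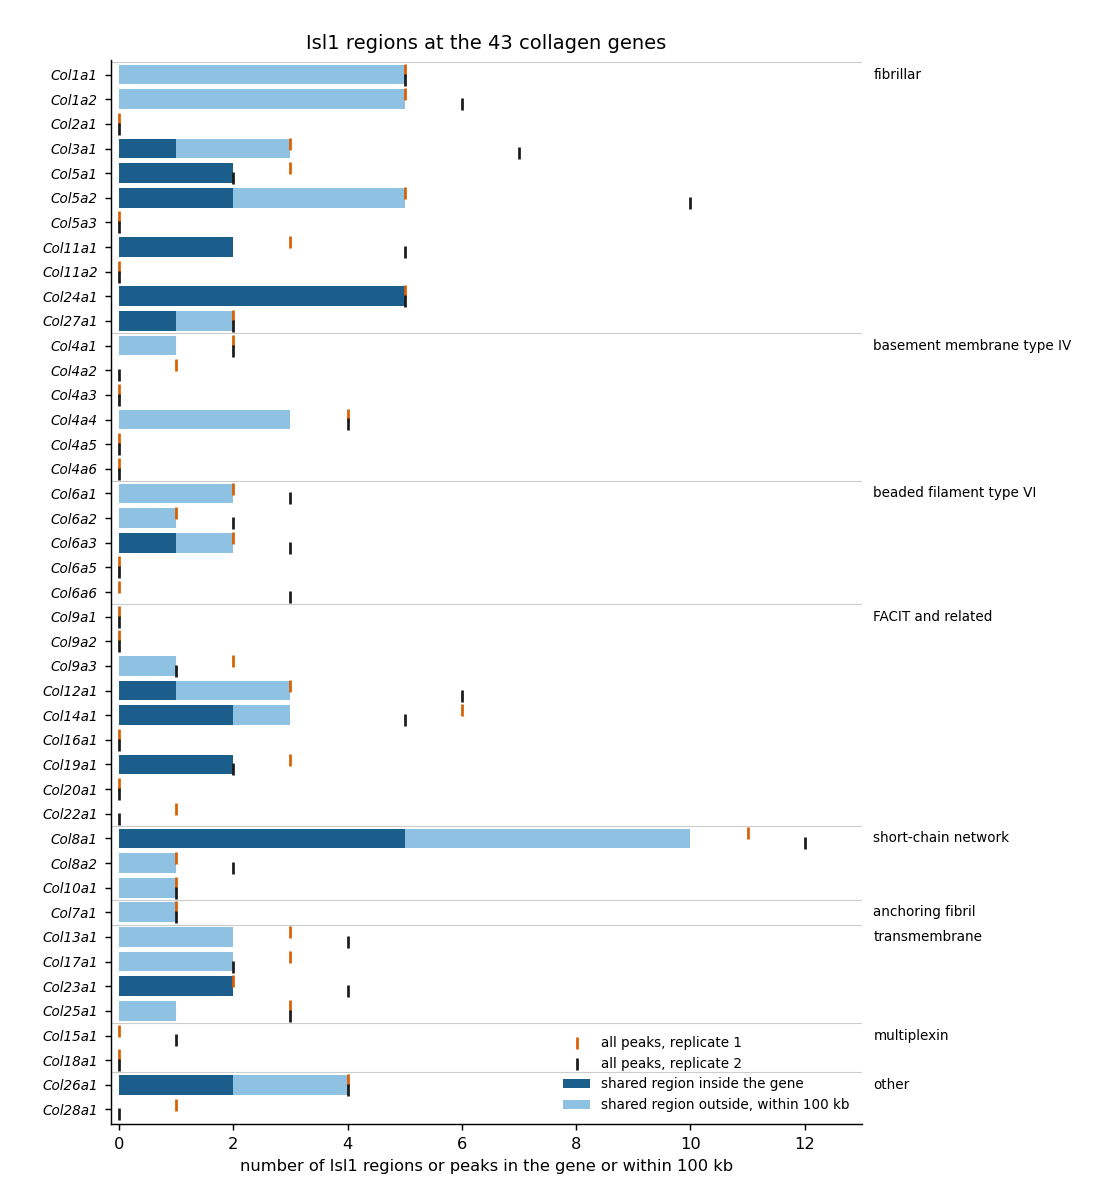
Number of shared Isl1 regions inside each of the 43 collagen genes (dark bars) and outside within 100 kb (light bars), by class, with ticks for all peaks of each replicate. Col8a1 has the longest bar with 10 regions, and 17 genes have none, 5 of them with a tick above 0 in 1 replicate.

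In total 17 members had no shared region, of which 12 had no peak in either list and 5 (Col4a2, Col6a6, Col15a1, Col22a1 and Col28a1) had peaks in 1 list. A peak below the authors' threshold would not be listed, so these genes are not shown to be unbound. Where a member of known strand had regions outside the gene, 14 lay before the start and 13 past the end. Just inside the 100 kb limit were the regions of Col7a1 at 99.63 kb (206 and 176) and Col8a1 at 99.48 kb (110 and 77). Farther inside were those of Col5a2 at 96.81 kb (76 and 53), Col25a1 at 93.69 kb (85 and 44) and Col8a1 at 91.85 kb (46 and 90). Just outside were one of Col3a1 at 101.8 kb (69 and 44), one of Col8a1 at 102.4 kb (32 and 62), one of Col6a2 at 109.2 kb (70 and 144), one of Col11a2 at 109.4 kb (634 and 534) and one of Col25a1 at 109.7 kb (1137 and 1045). The limit thus leaves out strong regions 109.4 kb from Col11a2 and 109.7 kb from Col25a1. Which genes these regions lie nearest to is not given here.

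Collagen chains need hydroxylases, chaperones, propeptide proteases and cross-linking enzymes, and 41 genes of these steps and of collagen receptors were counted in the same way. A shared region lay at 23 of them (56.1%, against 38.1% of all genes), with 38 distinct regions, at 3.72 per Mb (2.63 to 5.10), and their median length was 34.2 kb. Inside the gene 8 of the 41 had a region, against 8.32% of all genes. Over all genes that share runs from 2.89% under 40 kb to 51.7% at 160 kb or longer. The count over the 41 was not split by length. Within 1 kb of an end it was 5 of 41 (12.2%, against 4.89% of all genes and 1 of 43 collagens): Serpinh1, P3h4, Fkbp10, Colgalt1 and Loxl1, of which Serpinh1 and Loxl1 are named for this after their values were seen. Serpinh1, the collagen chaperone of the endoplasmic reticulum, had chr7:99353215-99353440 (857 and 695), 78 bp from the gene, with 3 peaks in replicate 1 and 1 in replicate 2. Between the prolyl hydroxylase complex gene P3h4 and the chaperone gene Fkbp10 lay 2 regions, and both genes had 3 in all. One was 59 bp from P3h4 (565 and 522) and one 278 bp from Fkbp10 (735 and 518). Both lay within 1 kb of an end of each gene, so P3h4 and Fkbp10 entered the count of 5 through the same regions. Loxl1, a cross-linking oxidase gene, had one 65 bp away (317 and 404), and the glycosyltransferase gene Colgalt1 had one inside (451 and 230). None of these values was tested against the collagens.

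The counts by step are small, and each is to be read beside the 38.1% of all genes. Hydroxylation genes had a region at 7 of 12. P3h2 had 3, all inside, the strongest with scores of 155 and 244, and replicate 1 had 6 peaks there. P4ha2 had one inside (396 and 263). Plod3 had 2, at 79.0 kb or more, which were also counted at Col26a1. Folding and export genes had one at 5 of 7, with 2 each at Ppib (89 and 135 for the nearest, 69.2 kb away) and at Fkbp14 (213 and 249 inside the gene). Among propeptide cleavage genes 3 of 8 had one, close to that share. Tll1, a tolloid protease, had 3, of which 2 were inside (73 and 154 for one of these), and Pcolce, an enhancer of such proteases, had 2, the nearest 17.6 kb away (121 and 83). Of cross-linking genes 4 of 5 had a region, and lysyl oxidase itself, Lox, had 4, with one inside (81 and 114) and 6 peaks in each list. Among receptors 3 of 7 had one, also near it: the integrin gene Itga11 had 4, one of them inside (93 and 146), and Itga1 had 2, with one inside (69 and 146) that was also the 1 region of Itga2. Replicate 2 had 4 peaks at Itga1 and replicate 1 had 2.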

How the data were processed

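The files were 2 peak lists, 1 per Isl1_ChIP sample, grouped and numbered by title. Each line gave a position in mm10 and a score that the authors deposited, a whole number. Its formula, its threshold and any use of the input are not given in the sources. Per the submitters' processing notes the tools included Trimmomatic 0.35, Bowtie2 2.2.6, MACS2 2.1.0.20150731 and bedtools, without roles or settings. The lists hold no read counts, so depth is unknown, and a deeper library could list more weak peaks. Whether scores are on 1 scale in both libraries is not stated.

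Overlaps and counts were computed in Python 3.11.15 with pandas 2.3.3 and scipy 1.17.1 and checked on simulated peaks. A region's midpoint is that of the longest overlap of its peaks. Gene positions, strands and promoters came from RefSeq tables of GRCm38.p6, whose chromosomes are those of mm10. Strand came from the promoter table, which had entries for 34 members. No entry was used for Col1a1, Col2a1, Col4a3, Col5a2, Col9a3, Col12a1, Col14a1, Col22a1 and Col26a1. No exon or intron class and no genome sequence outside promoters was used.

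No significance test was run: counts stand beside those of all protein-coding genes, and with 2 replicates the spread is given by both values. Positions were given for regions inside a member or within 1 kb of one, for the 10 highest lower scores, and for the strongest and nearest region of members with 3 or more. Biosynthesis genes were named where they had 2 or more regions or one inside. The members and lists were chosen with earlier results of these data known. The labels do not say whether the 2 samples came from separate pools of embryos. Alternatives were a 50% reciprocal overlap, windows of 10 and 500 kb, a score minimum, the nearest gene only, another midpoint and each list alone.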

Additional observations from a re-analysis of the deposited data

How the results depend on the processing

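The count of collagen genes with a region was 26, and 28 to 29 when either list was used alone, with 45.5% and 44.5% of all genes then counted. It was 15 (34.9%, against 14.3% of all genes) with a window of 10 kb and 36 (83.7%, against 78.0%) with 500 kb. When each region counted for its nearest gene only, it was 18 (41.9%, against 14.1%). Distinct regions numbered 83 to 98 in single lists, 34 within 10 kb, 143 within 500 kb and 35 with the lower score at or above its median. Regions inside members numbered 39 to 44 in single lists and 12 with that score minimum. Biosynthesis genes with a region numbered 25 to 26 in single lists (61.0% and 63.4%, against 45.5% and 44.5% of all genes). They numbered 12 within 10 kb (29.3%, against 14.3%) and 39 within 500 kb (95.1%, against 78.0%). By the nearest gene they numbered 14 (34.1%, against 14.1%). Of the peaks at members with a score at or above the median of their list, 95.7% were shared in replicate 1 and 86.5% in replicate 2. The matching shares over the whole lists were not computed. Of the counts at single members under these alternatives and with regions at ends of other genes left out, 98 of 387 moved. A count was called moved where it changed by over 1.5 times, or went from none to some or the reverse. With reciprocal overlap 26 members had a region (60.5%, against 36.3% of all genes) and 62 distinct regions were left. Col13a1 and Col23a1 then fell from 2 to 1. Leaving out regions at ends of other genes was chosen after the data were seen. No paired analysis was possible because inputs, though numbered like the ChIP samples, had no list to compare. The unknown depth limits how a missing peak can be read.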
